A study of Mus musculus with 18 samples.

Results

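The transcriptome of adipocytes isolated from inguinal white adipose tissue (iWAT), the subcutaneous white fat depot of the groin, was described in 6 RNA-seq samples. These are all the samples with the source name iWAT adipocytes, out of 18 samples of 3 tissues analysed here. The study addressed signaling through inhibitory G proteins in adipocytes, and RNA-seq served in it to list the receptors expressed in fat of mice maintained on a high-fat diet (HFD). The 6 mice were wild type males of the C57BL/6 strain, aged 16 weeks, that had consumed a HFD for 12 weeks. None of them carried a transgene. Sample titles give them the numbers 1, 2, 3, 4, 5 and 16, and values are given below in this order of mice. A treatment field in the labels gives regular chow for all samples, against their titles, and the samples were taken as HFD. Adipocytes were obtained from minced fat by collagenase digestion, passage through a strainer, and collection of the floating layer, without sorting. Cells that float with adipocytes or adhere to them are therefore not removed by a marker. The labels place mice 1 and 3 on lane 1 of the sequencer and mice 2, 4, 5 and 16 on lane 2.

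White adipocytes store triglyceride in one large lipid droplet. They take up fatty acids that lipoprotein lipase releases at the capillary wall, bind them to fatty acid binding proteins, esterify them, and release them again by lipolysis. They also make fatty acids from glucose and secrete hormones such as adiponectin and leptin. In the depot they lie in a bed of capillaries, pericytes, fibroblast-like progenitors and macrophages. Obesity is known to add macrophages to this bed.

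The members of the description are genes as the deposited files name them, with 1 row per symbol. Values are RPKM, reads scaled to the length of the transcript and to the reads of the sample, a level per length that can be compared between genes. Of 52093 symbols, 14193 (27.2%) reached 1 RPKM in the mean of the 6 mice and are called expressed below. A mean of at least 10 RPKM was reached by 4365 symbols, of at least 100 by 447, and of at least 1000 by 26. No read was counted in any of the 6 mice for 15818 symbols. Reads on the rows ranged from 26768529 (mouse 2) to 30166441 (mouse 4). Pearson's r of log2(RPKM + 0.1) between mice, across the expressed symbols, was 0.961 to 0.992. No pair of mice had counts alike within sampling noise (the smallest chi-square, divided by its degrees of freedom, was 17.5), so that the 6 samples are separate libraries.

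The label of the samples was checked against marker genes. All 17 genes of the adipocyte list were expressed. Adipoq (adiponectin; chr16:23146609-23158101 of mm9) had 1081, 1272, 1096, 1175, 840 and 1297 RPKM. The lowest of these values was that of mouse 5. Genes of other cell types were present at lower levels. Cdh5, the cadherin of endothelial junctions, had 111 ± 45.3 RPKM (mean ± SD, n = 6 mice, as below) and Cd68, a lysosomal protein of macrophages, had 140 ± 32.8 RPKM. All 18 endothelial and all 14 macrophage genes were expressed. None of 8 B cell genes, 10 T and NK cell genes and 11 epithelial and keratinocyte genes reached 1 RPKM, and Krt5, Krt14, Krt15, Krt17 and Krt8 had no read in any mouse. At this depth, expression of these keratin genes was not detectable. Each gene of the B cell and of the T and NK cell lists had reads in at least 1 mouse, at a mean under the cutoff. Ucp1, the uncoupling protein of brown and beige adipocytes, had 1.55 to 2.98 RPKM. In bulk samples such as these, fewer cells of a type and less RNA per cell cannot be told apart.

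The most abundant sequences were mitochondrial, and some of them were listed under nuclear symbols. Of the 20 symbols with the highest mean RPKM, 14 were mitochondrial sequence. They consisted of 7 rows on the mitochondrial genome itself and 7 rows on a pair of nuclear regions that are near-identical to it. The copy on chromosome 1 (chr1:24618374-24623027 of mm9, minus strand) matched mitochondrial positions 6390 to 11042 with an identity of 99.936% over 4654 aligned bases, with 2 mismatches and 1 gap. It holds the whole of the genes for cytochrome c oxidase subunits 2 and 3, for both small ATP synthase subunits, and for mt-Nd3 and mt-Nd4l. The copy on chromosome 2 (chr2:22443526-22446053, minus strand) matched positions 4442 to 6969 with an identity of 97.707% over 2529 aligned bases, with 56 mismatches, and holds the whole of mt-Co1. The next lines show, for each copy, 1 window of 81 bases around a difference from the mitochondrial genome, because they show how few bases can assign a read to either place. They were read from the mm9 genome. The window on the copy of chromosome 1 is chr1:24619916-24619996 (minus strand) and its mitochondrial counterpart is chrM:9421-9501 (plus strand), in mt-Tg and mt-Nd3. The window on the copy of chromosome 2 is chr2:22443622-22443702 (minus strand), with chrM:6793-6873 (plus strand) in mt-Co1 and mt-Ts1 as its counterpart. Capitals mark the base that differs.
Chromosome 1 copy: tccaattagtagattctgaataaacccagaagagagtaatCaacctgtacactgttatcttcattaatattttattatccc
Mitochondrial genome, same window: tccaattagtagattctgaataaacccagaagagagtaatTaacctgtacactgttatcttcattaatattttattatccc
Chromosome 2 copy: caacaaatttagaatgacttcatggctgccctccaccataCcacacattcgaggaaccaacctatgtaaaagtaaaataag
Mitochondrial genome, same window: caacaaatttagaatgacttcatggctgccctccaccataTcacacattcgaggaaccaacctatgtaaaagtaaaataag

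How reads that fit both places were counted is not given in the sources used here, so the split of reads between the nuclear and the mitochondrial rows is uncertain. All rows of the mitochondrial genome summed to 5.96% ± 0.916 of the reads that RPKM is scaled to (4.73% in mouse 5 to 7.03% in mouse 2). This sum includes both ND5 and ND6, which overlap, so that their reads can count more than once. For both nuclear copies, only the leading row of overlapping rows was summed, which gave 5.60% ± 0.893. The shares were thus counted differently, and which set of rows held more reads was not tested. The highest means were those of LOC100503946 (13706 RPKM), LOC100503984 (13587 RPKM) and COX2 (13528 RPKM), all 3 on the copy of chromosome 1 and overlapping each other. COX3 (10392 RPKM) and ND4L (8313 RPKM) lie on the same copy, and Gm13340 (4249 RPKM) and LOC100504272 (3965 RPKM) on that of chromosome 2. Rows of the mitochondrial genome were led by mt-Cytb, which codes for cytochrome b (9175 RPKM), and by COX1 (8169 RPKM). They were followed by AK142750 (5676 RPKM), mt-Nd2 (5393 RPKM), mt-Nd1 (3908 RPKM), ND6 (3247 RPKM) and ND5 (3214 RPKM). ND5 and ND6 lie on opposite strands of overlapping positions. Since the strand of counting is not stated, their reads cannot be told apart. All of these rows were lowest in mouse 5. The 14 mitochondrial symbols made up 28.1% ± 3.35 of the summed RPKM of all symbols, and the 20 symbols together 33.5% ± 3.43. Rows that overlap each other all enter these sums, so that the same reads can count more than once. The shares are therefore not the part of mitochondrial RNA in the transcriptome, and a share without overlapping rows was not computed. When symbols were ranked by read count instead, a ranking that favors long transcripts, the share of the first 20 was 24.8%, and Lpl, Sparc, Cd36 and Gsn entered the list.

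Products of fat storage led the nuclear genome. Fabp4 (chr3:10204342-10208576), the fatty acid binding protein of adipocytes, had 9754, 11196, 9937, 11361, 8616 and 12054 RPKM. Its mean of 10486 ± 1270 RPKM was 2.77% ± 0.313 of the summed RPKM. The values ranged over a factor of 1.4 between the mice. Scd1 (chr19:44466831-44482199), the desaturase that makes oleic from stearic acid, had 2264, 2514, 2416, 2498, 1660 and 3599 RPKM, with a mean of 2492 ± 628. Car3 (chr3:14863509-14872532), a cytosolic carbonic anhydrase that is abundant in fat and muscle, followed with 2230 ± 405 RPKM. Hp (chr8:112099028-112103072), which codes for the hemoglobin-binding acute phase protein haptoglobin, had 1885 ± 380 RPKM. Scd1, Car3 and Hp were each lowest in mouse 5 and highest in mouse 16, and between these mice Scd1 differed by a factor of 2.17. Gm1821, a pseudogene that overlaps Ubb, was also among the first 20 with 1738 ± 85.3 RPKM. Its reads are uncertain, because near-identical or overlapping genes can share them.

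The 20 most abundant nuclear loci, after overlapping or mitochondrial rows had been set aside, held 7.47% ± 0.909 of the reads. Others of them are given here because of their level and were chosen after their values were seen. Gsn, which codes for the actin-severing protein gelsolin, had 1353 ± 158 RPKM. Cidec, a protein of the lipid droplet surface that promotes droplet fusion, had 992 ± 162 RPKM, and Dgat2, which carries out the last step of triglyceride synthesis, had 944 ± 159 RPKM. Lpl (lipoprotein lipase) had 846 ± 124 RPKM and Lep (leptin) had 839 ± 65.0 RPKM. Cav1, the main protein of caveolae, had 810 ± 71.8 RPKM, and Sparc, a protein of the extracellular matrix, had 800 ± 47.1 RPKM. Lep spread less than Adipoq, with 737 to 928 RPKM against 840 to 1297 RPKM. In the plot of abundant nuclear loci, values of mouse 5 lie at the low end for Fabp4, Scd1, Car3, Hp, Adipoq, Cidec, Dgat2, Lpl and Lep.

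**Figure D1:**
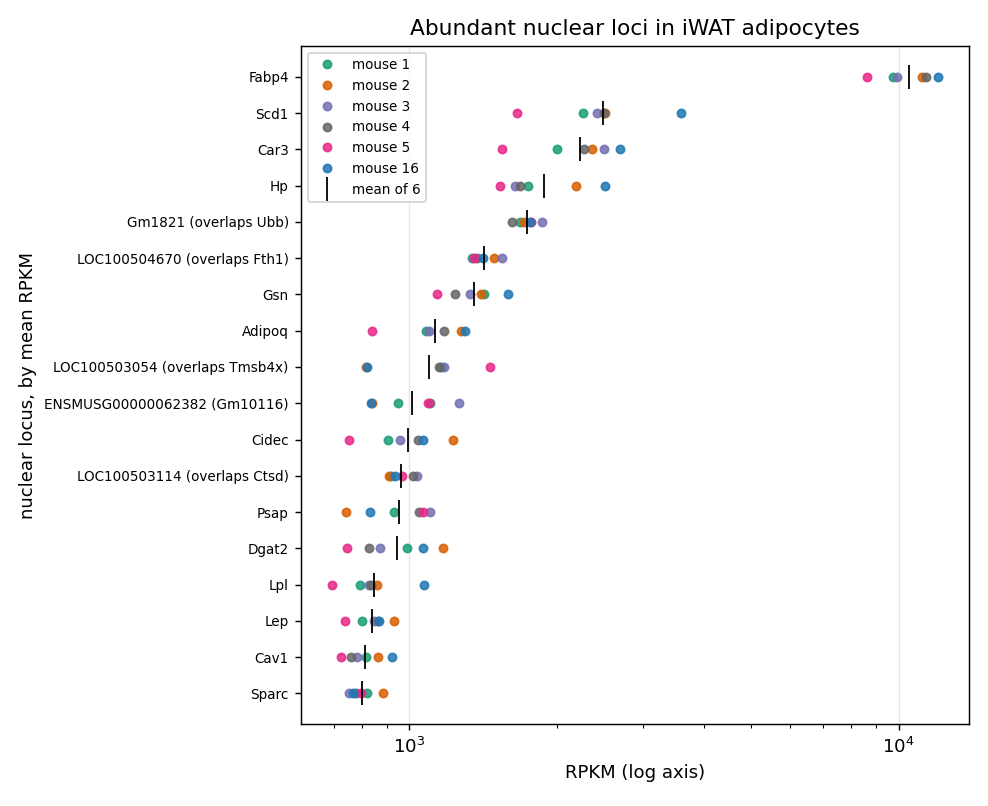
RPKM (log axis) of 18 of the 20 nuclear loci with the highest mean in iWAT adipocytes, with 1 point per mouse and a vertical bar at the mean of 6 mice. Fabp4 has 8616 to 12054 RPKM in every mouse, and Scd1, the next locus, 1660 to 3599 RPKM.

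Genes of lipid synthesis, storage and release were mostly lowest in mouse 5. Of the lipogenesis list (13 genes, all expressed, with a summed level of 2018 to 4169 RPKM), 12 were lowest in mouse 5. Its most variable member was Thrsp, a nuclear protein that promotes lipogenesis, with 54.6, 48.4, 53.5, 53.5, 25 and 50.7 RPKM. Mouse 5 stood apart from the 5 other mice for this gene. All 7 genes of triglyceride synthesis were lowest in mouse 5, with Dgat2 as the most abundant. Of the lipolysis and droplet coat list, 9 of 11 genes were lowest in mouse 5. The first gene of this list, Pnpla2, codes for the lipase that starts lipolysis and had 296, 349, 312, 343, 217 and 384 RPKM. Mogat1, an acyltransferase and the most variable gene of triglyceride synthesis, had 5.97, 6.86, 6.82, 5.57, 4.08 and 7.74 RPKM. Of the fatty acid uptake list, 6 of 8 expressed genes were lowest there. Cd36, a fatty acid transporter of this list chosen after its values were seen, was even among the mice with 547 ± 20.2 RPKM. Gpihbp1, which carries lipoprotein lipase on capillary endothelium, was the most variable of this list and had 65.5, 34.6, 35.2, 50.9, 60.9 and 23.6 RPKM. It was lowest in mouse 16 and is also a member of the endothelial list. Of the 17 adipocyte genes, 16 were lowest in mouse 5, with Aqp7, the glycerol channel, as the exception. Of all expressed symbols, 24.3% were lowest in mouse 5. Adrb3, the β3-adrenergic receptor, was the most variable of the 17, with 11.3, 15, 18.8, 9.43, 8.42 and 15.1 RPKM. The summed level of the adipocyte list was 13065 to 18522 RPKM, with a median of 16496. TMM (trimmed mean of M-values) factors, which correct for composition, lower all levels of mouse 5 by 0.12 on the log2 scale and move those of the other mice by -0.06 to 0.07. After TMM scaling, all 17 adipocyte and all 13 lipogenesis genes were lowest in mouse 5.

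Spread among the mice was measured as the SD of log2(RPKM + 0.1). Its median over the expressed symbols was 0.158, with 0.0614 and 0.497 as the 5th and 95th percentiles. An SD of at least 0.5 was reached by 692 symbols (4.88%). Read counting alone would give a median SD of 0.0583, and for 8674 symbols (61.1%) the SD was over 2 times the value that counting gives. The 200 symbols with the largest SD, which are 1.41% of the expressed symbols, stand for 182 distinct loci, since some rows overlap. The SD ranked these symbols, and their values are a description. The last symbol inside this limit was Papln (SD 0.6861) and Klhl4 lay just outside (SD 0.6846), so that the limit falls in a continuous range. The pseudocount and the cutoff decide much of the list. A pseudocount of 1 RPKM kept 126 of the 200 symbols, and a cutoff of 5 RPKM kept 67.

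**Figure D2:**
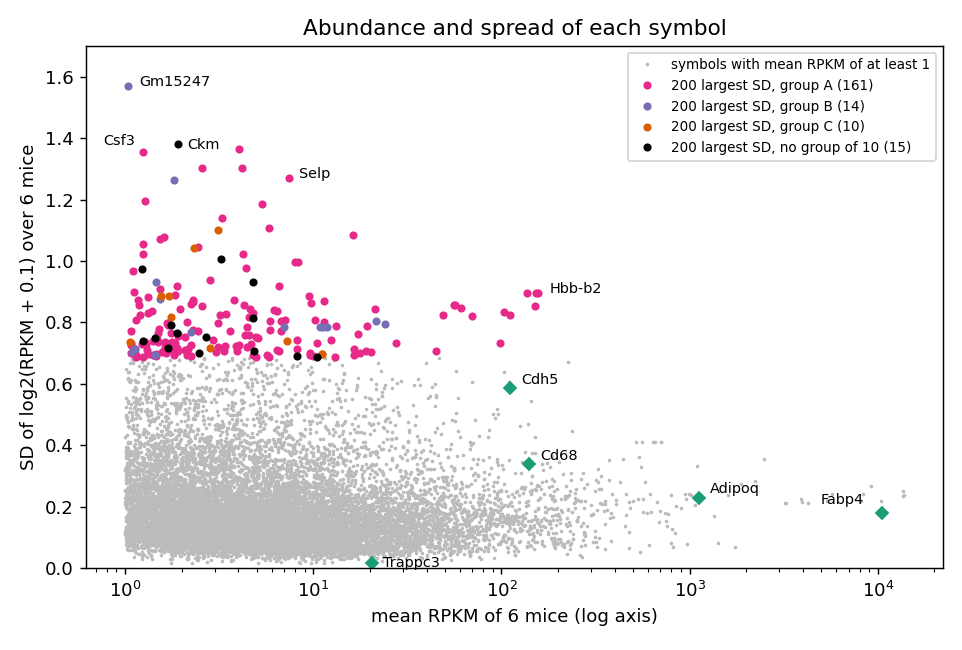
Mean RPKM of 6 mice (log axis) against the SD of log2(RPKM + 0.1) over the 6 mice, with 1 point per expressed symbol. Grey points are the 14193 expressed symbols, whose median SD is 0.158, and colored points are the 200 with the largest SD, by the group they vary with.

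Genes of small vessels led the list of variable genes. Selp (P-selectin; chr1:166045395-166080157), which captures leukocytes on activated endothelium, had 5.85, 4.94, 2.21, 3.41, 25.5 and 2.45 RPKM. Sele (E-selectin; chr1:165978347-165988617), an adhesion molecule of the same family, had 3.01, 2.05, 1.12, 1.37, 10.5 and 1.58 RPKM. Both selectins were highest in mouse 5, by more than 3 times the next mouse. LOC100503816 and Gm16587 overlap Selp on the other strand and were highest in mouse 5 too, and reads of the 3 rows cannot be told apart. Darc (now Ackr1), the chemokine-binding protein of venules, had 3.97, 1.08, 0.495, 1.94, 6.86 and 1.09 RPKM. Gja4, a connexin of arterial endothelium, had 10.1, 3.46, 1.93, 6.58, 8.75 and 1.26 RPKM. Pgf, a growth factor of the VEGF family, had 7.63, 2.38, 3.35, 4.98, 14.7 and 1.74 RPKM. These 3 genes shared high values in mice 1 and 5 and were low in mouse 16, mouse 3 or both.

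Other cell types were also represented among the 20 most variable symbols. Igkc, the constant region of the immunoglobulin kappa chain, had 6.18, 2.61, 1.73, 3.58, 9.74 and 1.49 RPKM, while the genes of the B cell list stayed under 1 RPKM. Csf3, the granulocyte colony-stimulating factor, had 4.94 RPKM in mouse 5 and 0.227 to 0.698 RPKM in the others. Ckm (muscle creatine kinase; chr7:19996443-20006932) ran the other way, with 2.29, 2.28, 3.12, 3.02, 0.234 and 0.521 RPKM. It was lowest in mice 5 and 16, which are at opposite ends for the vascular genes. Tbx2, a T-box transcription factor, had 0.410 RPKM in mouse 16 to 2.79 RPKM in mouse 1, and Tmem252 (listed as E030010A14Rik) had 5.62 RPKM in mouse 16 to 32.0 RPKM in mouse 5. Gprc5a, an orphan receptor of the G protein-coupled family, had 0.293 to 3.32 RPKM. LOC100047583 overlaps Apod and had 0.361 to 3.01 RPKM. The noncoding or pseudogene symbols Gm15242, Gm12328 and Snord14d rest on few reads (1 to 44 in any mouse), with a counting SD of 0.495, 0.404 and 0.681.

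Most of the 200 symbols followed a single pattern. Symbols were joined by average linkage on 1 minus Pearson's r and divided at 0.5. The same values that chose the symbols grouped them, so groups are a description and carry no test. The largest group, group A, held 161 symbols (80.5%; 150 loci). Its mean log2 deviation from each gene's own mean was 0.69, -0.30, -0.61, 0.07, 1.08 and -0.92 in the 6 mice. Mouse 5 was the highest for 145 members and mouse 16 the lowest for 127, and mice 5 and 1 were the 2 highest for 149. Members varied by a median factor of 4.25 between the highest and the lowest mouse, and their median r with the group mean was 0.970.

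The symbols nearest to the group mean were Crispld2, Igkc, Gucy1b3, Pcdh17, Cygb, Tnxb, Pdgfrb and Gm13889. Pdgfrb, the PDGF receptor of pericytes and mural cells, had 20.8, 9.69, 7.17, 11.8, 23.8 and 6.19 RPKM. Cygb, a globin of pericyte-like and fibroblast-like cells, had 26.8, 12.8, 9.85, 16.2, 30.3 and 8.14 RPKM. Gucy1b3, a subunit of the nitric oxide receptor guanylate cyclase, had 1.90 to 6.78 RPKM. Tnxb, an extracellular matrix protein, had 2.57 to 11.8 RPKM. Crispld2, a secreted protein, had 0.658 to 3.99 RPKM and Pcdh17, a protocadherin, 1.04 to 3.91 RPKM. In all of them mouse 5 was highest, mouse 1 next and mouse 16 lowest.

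Since the members were chosen and grouped by their values in these same 6 mice, the values within each lane are a description and do not test an effect of lane. Within lane 1, mouse 1 exceeded mouse 3 for 159 of the 161 members, with a median log2 difference of 1.32. Within lane 2, mouse 5 exceeded mouse 16 by a median of 1.93. Removing the lane means moved the median SD of the members from 0.77 to 0.76, and within lane 2 alone it was 0.83. Mice 5 and 16 contributed most to the list. When each was left out in turn, 106 of the 161 members stayed among the 200 most variable without mouse 5 and 118 without mouse 16, against 139 to 153 without any one of the other mice.

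**Figure D3:**
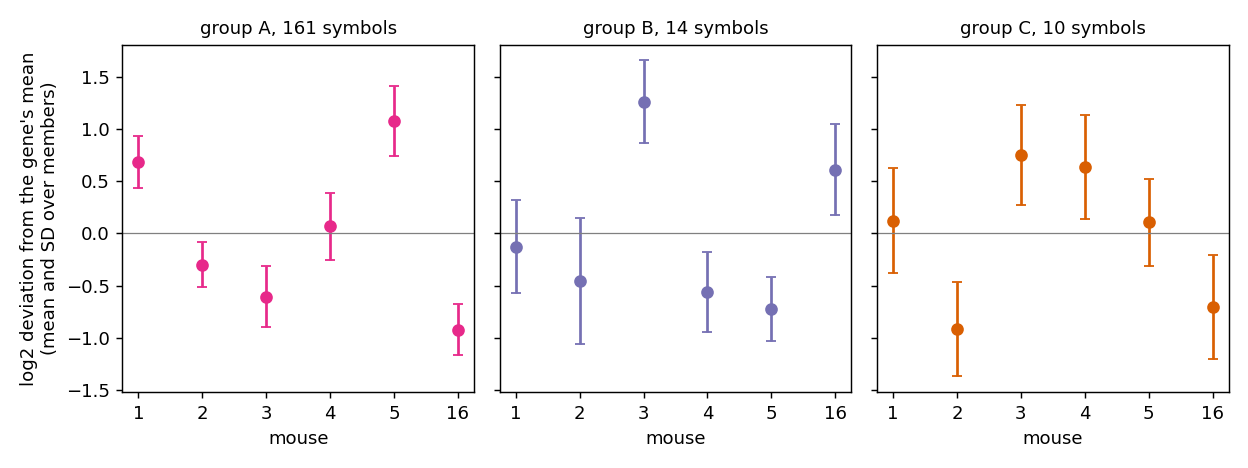
Mean log2 deviation from each gene's own mean (bars: SD over members) by mouse for the 3 groups of symbols that vary together. Group A (161 symbols) is highest in mouse 5 (1.08) and lowest in mouse 16 (-0.92), group B (14 symbols) is highest in mouse 3 (1.26), and group C (10 symbols) is lowest in mouse 2 (-0.92).

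In a principal component analysis, 1 component prevailed. The first component held 75% of the variance of the 200 symbols, and the next components held 9.65% and 8.46%. Over all 14193 expressed symbols, the first component held 55.7%, the second 19.0% and the third 11.2%. Of all expressed symbols, 30.6% were highest in mouse 5 and 23.2% lowest in mouse 16, against 151 and 130 of the 200.

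Group B held 14 symbols at 9 loci, with deviations of -0.13, -0.46, 1.26, -0.56, -0.72 and 0.61. It was highest in mouse 3 and next in mouse 16. Most of its members are major urinary proteins, small lipid-binding secreted proteins encoded by a cluster of near-identical genes on chromosome 4. Mup7 had 20.4, 14.5, 47.5, 11.3, 10.8 and 24.5 RPKM. Mup19, Mup15 and Mup17, which overlap each other and Mup2 at 1 locus, followed it with 26.2, 24.1 and 24.9 RPKM in mouse 3 against at most 12.4 RPKM in the other mice. Mup18 overlaps Mup7, and Mup10 had 0.763 to 2.93 RPKM. Mup7 and Mup19 were identical at 96.795% of 3931 aligned bases, and Mup7 and Mup10 at 97.42% of 3953. A window of 81 bases shows how alike they are (Mup7 at chr4:60083103-60083183 and Mup19 at chr4:60152589-60152669, both minus strand, mm9), with capitals at the 2 bases that differ.
Mup7: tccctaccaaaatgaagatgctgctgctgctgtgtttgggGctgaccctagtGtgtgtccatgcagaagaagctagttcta
Mup19: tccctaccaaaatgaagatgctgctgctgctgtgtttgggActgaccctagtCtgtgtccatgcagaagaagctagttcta

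Reads may therefore be shared among these genes, and their single levels are uncertain. Cyp2f2, a cytochrome P450 at a locus of its own, had the same order at the top, with 1.73, 1.71, 4.89, 1.12, 1.17 and 2.76 RPKM. The group also held Gm15247 and Gm15726, which lie within Mid1 on chromosome X (chrX:166123129-166428730), a ubiquitin ligase of microtubules. Gm15247 was the most variable of all expressed symbols (SD 1.57) with 0.252, 0.0909, 2.86, 0.958, 0.247 and 1.83 RPKM, from 1 to 35 reads. Gm15726 had 0.731, 0.648, 4.20, 1.14, 0.456 and 3.78 RPKM. Mid1 itself had 0.682, 0.690, 3.23, 0.905, 0.776 and 2.50 RPKM, from 227 to 1181 reads, and thus the same 2 high mice.

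Group C held 10 symbols at 9 loci and was lowest in mouse 2 (-0.92) and mouse 16 (-0.70). Its symbols nearest to the mean were Ear12 and Ear3, which name 1 locus of the eosinophil-associated ribonucleases. They had 8.11, 5.60, 21.2, 15, 9.0 and 7.63 RPKM. The others were small nucleolar RNAs (Snora64, Snord14d), pseudogenes (Gm16407, Gm12328) and unnamed transcripts. The remaining 15 symbols fell into no group of at least 10 and included Ckm and Acta1.

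At the other end, the expressed genes with the smallest SD (mean of at least 10 RPKM) hardly differed among the mice. Trappc3, a subunit of the TRAPP vesicle-tethering complex, had 20.3 to 20.9 RPKM (SD 0.016). Sdccag3 (11.1 to 11.5 RPKM), the atypical kinase Riok3 (12.3 to 12.9 RPKM) and the peptidase Nrd1 (10.2 to 10.7 RPKM) came next. LOC631033 overlaps Kars, the lysyl-tRNA synthetase gene, and had 20.1 to 20.9 RPKM. Asna1, which inserts tail-anchored proteins into membranes, 6330577E15Rik (Sfr1), Daxx, Tsn and Fam134c complete the 10, with an SD of at most 0.029. For all 10, the SD was smaller than that given for read counting (0.0245 to 0.0478).

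Lists of cell type markers were then followed across the mice. Of the endothelial list, all 18 genes were lowest in mouse 16 and 16 were highest in mouse 5, against 23.2% and 30.6% of all expressed symbols. Cdh5 (chr8:106625525-106668402) had 151, 84.6, 76.4, 114, 177 and 62.5 RPKM. The order of the mice was that of group A, with mice 5, 1 and 4 on top. The most abundant of the list, Cldn5, a claudin of endothelial tight junctions, had 173, 106, 111, 147, 242 and 85.6 RPKM, and the most variable, Sox17, a transcription factor of arterial endothelium, had 16.3, 7.84, 5.63, 14.7, 19.7 and 4.53 RPKM. The median SD of the list was 0.59, against 0.158 over all expressed symbols, and 3 of its genes were among the 200. With TMM scaling, 17 genes were lowest in mouse 16 and 16 highest in mouse 5.

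The pericyte and smooth muscle list (10 of 11 genes expressed) had a median SD of 0.72, with 6 genes among the 200. Rgs5, a marker of pericytes, had 138, 65.4, 57.4, 86.7, 189 and 53.9 RPKM. Notch3, the Notch receptor of mural cells, had 15.8, 6.10, 4.85, 8.50, 17.6 and 3.89 RPKM. Both followed the order of the endothelial genes. Acta2, the smooth muscle actin, chosen after its values were seen, did not, with 12.4, 12.3, 13.5, 10.5, 10.9 and 7.12 RPKM.

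The list of progenitors and fibroblasts (11 of 14 genes expressed) had 9 genes highest in mouse 5, against 30.6% of all expressed symbols. Its median SD was 0.56. Cd34, the stem cell antigen shared by endothelium and progenitors, was chosen after its values were seen and had 19.1, 9.04, 8.55, 13.3, 22.0 and 6.54 RPKM. The most abundant gene of the list, Dpt (dermatopontin), ran the other way, with 469, 530, 448, 424, 393 and 592 RPKM. Mmp2, a matrix metalloprotease and the most variable of the list, had 9.21, 4.55, 2.69, 5.67, 11.8 and 3.01 RPKM. Pdgfra, the PDGF receptor of adipose progenitors, stayed under the cutoff with 1.07, 0.498, 0.454, 0.710, 1.53 and 0.359 RPKM.

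Genes of red blood cells had the largest spread of all marker lists of at least 3 genes. All 5 expressed genes of 6 were among the 200, each highest in mouse 5 and lowest in mouse 16, with a median SD of 0.86. Among all expressed symbols, 30.6% were highest in mouse 5 and 23.2% lowest in mouse 16. Hba-a1, an alpha globin, had 216, 122, 77.3, 150, 277 and 59.2 RPKM. Hbb-b2, a beta globin that may share reads with the near-identical Hbb-b1, had 246, 114, 83.0, 151, 292 and 58.3 RPKM. Globins thus moved with the endothelial and pericyte genes, and the part of blood in the vascular pattern was not tested. The list of B cell genes, none of which reached 1 RPKM, summed to 1.46 to 3.97 RPKM.

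Macrophage genes had an order of their own. All 14 genes were lowest in mouse 2, and 10 were highest in mouse 3 and 4 in mouse 5, while 21.1% of all expressed symbols were lowest in mouse 2 and 15.1% highest in mouse 3. Lyz2, the lysozyme of myeloid cells, had 375, 298, 599, 444, 522 and 407 RPKM, and Cd68 (the first gene of the list) had 115, 101, 185, 155, 164 and 121 RPKM. All 10 genes of the list of lipid-associated macrophages, which take up lipid in obese fat, were lowest in mouse 2 as well. Among them, Trem2, a lipid-sensing receptor, had 12.6, 8.56, 16, 14.9, 14.7 and 9.44 RPKM. The most abundant, Lgals3 (galectin 3), had 236, 200, 356, 297, 302 and 229 RPKM. None of these genes was among the 200, and the median SD of the lists was 0.35 and 0.34. With TMM scaling, 13 of 14 macrophage genes were highest in mouse 3, and 8 of 10 genes of lipid-associated macrophages were lowest in mouse 2.

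Expressed genes of antigen presentation were highest in mouse 3, and those of proliferation in mouse 3 or mouse 5. All 6 expressed genes of MHC class II were highest in mouse 3 and lowest in mouse 2. Cd74, the invariant chain of MHC class II, had 169, 153, 257, 184, 220 and 164 RPKM. Of the 13 expressed cell cycle genes, 7 were highest in mouse 3 and 6 in mouse 5, and 7 were lowest in mouse 16 and 6 in mouse 2. The shares over all expressed symbols were 15.1% highest in mouse 3, 30.6% highest in mouse 5, 23.2% lowest in mouse 16 and 21.1% lowest in mouse 2. Mki67, a nuclear protein of dividing cells, had 3.92, 3.41, 6.85, 4.66, 7.14 and 4.0 RPKM. With TMM scaling, all 13 cell cycle genes were highest in mouse 3, and 4 of the 6 MHC class II genes remained lowest in mouse 2.

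**Figure D4:**
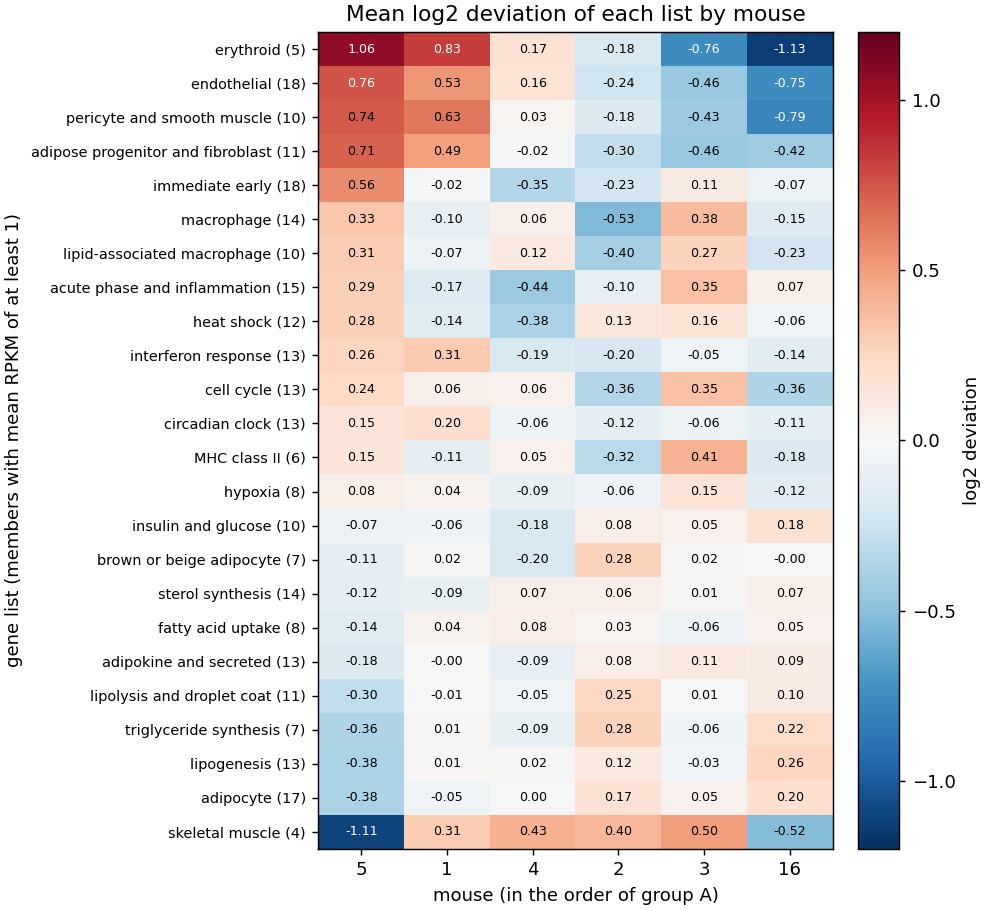
Mean log2 deviation from each gene's own mean for each list of at least 3 expressed genes (rows, with the number of expressed members) by mouse (columns, in the order of group A). The erythroid, endothelial, pericyte and progenitor lists run from high values in mouse 5 to low values in mice 3 and 16, and the adipocyte and lipogenesis lists have their lowest value in mouse 5 (-0.38 for both).

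Response genes were expressed at high levels in every mouse. The immediate early list, transcription factors and other genes that cells induce within minutes of a stimulus, was expressed as a whole (18 of 18 genes). Fos had 455, 383, 468, 391, 611 and 438 RPKM. It was the first and the most abundant gene of the list. Egr3, the most variable, had 5.23, 2.48, 2.97, 2.79, 11.5 and 2.74 RPKM and was the only gene of the list among the 200. Mouse 5 was the highest for 16 of the 18 genes (14 with TMM scaling), and mouse 4 the lowest for 12 (14 with TMM scaling). Mouse 5 was the highest for 30.6% of all expressed symbols, and mouse 4 the lowest for 11.3%. The summed level of the list was 2693 to 4525 RPKM.

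Heat shock genes were abundant as well, led by the inducible chaperone gene Hspa1a with 711, 715, 539, 454, 995 and 524 RPKM. Reads of Hspa1a may be shared with the near-identical Hspa1b. Of the 12 genes, 6 were highest in mouse 5 and 10 were lowest in mouse 4, against 30.6% and 11.3% of all expressed symbols. With TMM scaling, 3 were highest in mouse 5 and 8 lowest in mouse 4, and the mean of the list was then highest in mouse 2. Of the acute phase and inflammation list (15 genes), 7 were highest in mouse 3 and 9 were lowest in mouse 4. Among all expressed symbols, these shares were 15.1% and 11.3%. Cxcl1, a chemokine for neutrophils chosen after its values were seen, had 200, 207, 354, 146, 293 and 231 RPKM. The cytokine Il6 had 10.9, 7.6, 9.76, 4.99, 26.8 and 8.25 RPKM and was the only member among the 200. Collagenase digestion came before RNA extraction in all 6 samples, and its part in these levels was not tested.

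The remaining lists were of metabolism, interferon response and rarer cell types. For comparison with their counts, 24.3% of all expressed symbols were lowest in mouse 5, 21.1% in mouse 2 and 11.3% in mouse 4. Of 13 expressed interferon response genes, 8 were highest in mouse 1 (9 with TMM scaling), against 18.1% of all expressed symbols, and 5 were lowest in mouse 2 (4 with TMM scaling). Rsad2, the antiviral protein viperin, varied most, with 14.6, 6.61, 6.21, 9.85, 13.7 and 6.04 RPKM, high in mice 1 and 5. The insulin and glucose list (10 genes) had 6 genes lowest in mouse 4, but with TMM scaling 4, and then 5 were lowest in mouse 5. Slc2a4, the insulin-regulated glucose transporter GLUT4, was its most variable gene, with 19.9, 17.6, 17.2, 18.4, 12.2 and 23.3 RPKM. Of 14 sterol synthesis genes, 8 were lowest in mouse 5 (10 with TMM scaling), with a median SD of 0.17. Of the adipokine and secreted list, 7 of 13 expressed genes were lowest in mouse 5 (10 with TMM scaling). Apln, the peptide apelin and the most variable of these, was instead highest there, with 11.3, 6.99, 7.57, 5.41, 13.9 and 3.97 RPKM. The brown or beige list (7 of 10 genes expressed), the circadian clock list (13 of 15) and the hypoxia list (8 of 10) had no member among the 200. Cox8b, a cytochrome c oxidase subunit of brown fat and muscle, had 19.8 to 33.1 RPKM, and the clock gene Nr1d1 had 37.2 to 53.9 RPKM. Of 14 skeletal muscle genes, 4 reached 1 RPKM, all 4 were lowest in mouse 5, and Ckm and Acta1 were among the 200. Acta1, the actin of skeletal muscle, had 8.61, 10.2, 12.5, 9.55, 3.52 and 4.89 RPKM. Lists of lymphatic endothelium, Schwann cells, mast cells, dendritic cells, neutrophils and mesothelium had 1 or 2 expressed genes each.

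To see whether markers of other cell types moved with the adipocyte marker, log2(RPKM + 0.1) of Adipoq, Cdh5, Cd68 and Pdgfra was correlated over the 6 mice in 6 pairs, with two-sided exact permutation tests. Cdh5 and Pdgfra had r = 0.990 (exact p = 0.00139, 0.00833 after Benjamini-Hochberg adjustment over the 6 pairs) and rho = 1 (exact p = 0.00278, adjusted 0.0167). Without mice 5 and 16, which lie farthest from the median of Cdh5, r was 0.996. The 6 mice thus had the same order for the endothelial and the progenitor marker. Lane means removed, r was 0.991. Pdgfra lay under the cutoff of 1 RPKM (mean 0.771), and 783 expressed symbols (5.52%) had an r of at least 0.95 with Cdh5. A high r with Cdh5 was thus not particular to Pdgfra. Adipoq and Cdh5 had r = -0.798 (exact p = 0.0444, adjusted 0.0889; rho = -0.829, exact p = 0.0583, adjusted 0.117), which did not pass the threshold of 0.05 after adjustment. Without mice 5 and 16, the lowest and the highest for Adipoq, r was -0.387. Leaving out the extremes narrows the range, so this value cannot decide whether the relation rests on them. With mouse 5 or mouse 16 alone left out, r was -0.634 and -0.732. For Adipoq and Pdgfra, r was -0.858 (exact p = 0.025, adjusted 0.075; rho = -0.829, exact p = 0.0583, adjusted 0.117), and -0.447 without mice 5 and 16. Lane means removed, both values changed little (-0.797 and -0.860).

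Cd68 was not shown to move with any of the other markers. Its r was -0.559 with Adipoq (exact p = 0.25, adjusted 0.375; rho = -0.429, exact p = 0.419, adjusted 0.629), 0.156 with Cdh5 (exact p = 0.754, adjusted 0.754; rho = 0.0286, exact p = 1, adjusted 1) and 0.192 with Pdgfra (exact p = 0.693, adjusted 0.754; rho = 0.0286, exact p = 1, adjusted 1). Without mice 5 and 16, the farthest from the median of Adipoq and of Cdh5, r was -0.509 with Adipoq and -0.339 with Cdh5. Without mice 2 and 3, the farthest from the median of Cd68, r was 0.455 with Pdgfra. Lane means removed, r with Adipoq, Cdh5 and Pdgfra was -0.550, 0.145 and 0.188. Within the 4 mice of lane 2, the values were -0.751, 0.772 and 0.772. Lane 1 holds 2 mice and gives no value.

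**Figure D5:**
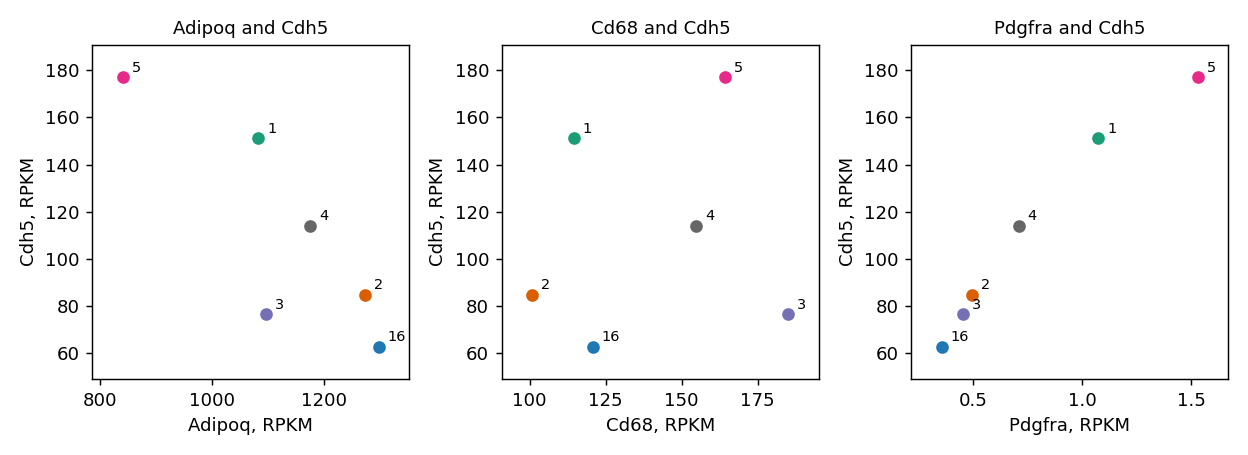
RPKM of pairs of marker genes in iWAT adipocytes, with 1 point per mouse, labelled with its number. Cdh5 runs from 62.5 RPKM in mouse 16 to 177 RPKM in mouse 5, while Adipoq has 1297 and 840 RPKM in these mice.

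Some genes tracked each marker closely over the 6 mice, by Pearson's r of log2 values as the measure of likeness. Nearest to Cdh5 was Pecam1, the adhesion molecule CD31 of endothelium, with 46.7, 26.2, 23.0, 35.6, 55.8 and 19.4 RPKM (r = 0.9995). AK134839, Lmo7, Ptgs1 (cyclooxygenase 1) and Prex2 followed, and 783 symbols (5.52% of the expressed symbols) had an r of at least 0.95 with Cdh5. Nearest to Cd68 was Ctsl, the lysosomal protease cathepsin L, with 187, 177, 234, 215, 224 and 192 RPKM (r = 0.999). It was followed by Apbb1ip, the interleukin 7 receptor gene Il7r, the inhibitory receptor Lilrb3 and the protease inhibitor Cstb, and 201 symbols (1.42%) reached this r. Nearest to Adipoq were Ict1, Tubg1 (gamma tubulin), Gm17257, 0610007P22Rik and the phospholipase Pla2g12a, with 229 symbols (1.61%). Pla2g12a had 22.5, 26.7, 22.5, 24.1, 17.6 and 27.5 RPKM. Over 6 points that share libraries, such values describe likeness of pattern and carry no test.

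Lane was the one technical split that the labels give for these mice. In edgeR's quasi-likelihood test of lane 2 (4 mice) against lane 1 (2 mice), 0 of 19377 symbols (0%) passed a Benjamini-Hochberg adjusted p of 0.05, and 172 (0.888%) had an unadjusted p under 0.05. DESeq2 gave 0 with 115 under an unadjusted p of 0.05, and limma on log2(RPKM + 0.1) gave 0 with 163. The smallest p was that of Slc39a8, a zinc and manganese transporter, with 2.62 and 1.69 RPKM on lane 1 and 1.13, 1.14, 1.32 and 0.864 on lane 2 (log2 difference of lane 2 over lane 1 -0.92, SE 0.19, edgeR adjusted p = 0.99995). It was followed by LOC100503748, Pon1, LOC100504370 and Dst. In simulated data of this design, the test recovered 53.1% of changes of 2-fold and 94.3% of changes of 4-fold. In the measured libraries, the first component held 55.7% of the variance over all expressed symbols. Mice 1 and 3, both of lane 1, had weights of opposite sign on it. Whether the simulated recovery holds with such a shared pattern was not tested. Smaller lane differences could go unseen, and larger ones may as well.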

How the data were processed

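RNA of iWAT adipocytes from 6 mice was analysed, grouped by the source name in the labels. Per the labels, libraries were made from RNA with a RIN of at least 8 with a NEBNext Ultra kit and sequenced on a HiSeq instrument, and reads were mapped to mm9. The submitters' processing notes name cutadapt 1.16 and HISAT2 2.1.0. The counting program, its annotation, its use of strand and the way reads with several matches were counted are not given in the sources used here.

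The deposited files give a read count (whole numbers) for each of 53445 transcript rows. The authors also deposited an RPKM per row, which in each file equals the count divided by length and by 1 total per sample, so it carries no other normalization. Other deposited columns were not used.

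For 1220 symbols with several rows, the row kept was that of highest mean RPKM in the 18 samples. Symbols were ranked by mean RPKM and by the SD of log2(RPKM + 0.1) among those with a mean of at least 1 RPKM. The 200 with the largest SD were clustered on 1 minus Pearson's r. Loci were called the same when they overlapped by at least 50% of the shorter span. The SD of counting was computed from the read counts as Poisson noise. Nuclear copies and gene families were aligned in mm9 with blastn 2.17.0 and read with samtools 1.23.1. The 33 gene lists held 362 genes, of which 361 were found under their symbol or an older one.

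Marker genes were correlated with exact permutation tests (scipy 1.17.1). Lanes were compared on counts with edgeR 4.0.16 (quasi-likelihood test, TMM, mean count of at least 10; R 4.3.3), with DESeq2 1.42.0 and limma 3.58.1 as alternatives. In a check of edgeR on simulated data of this design with 19377 symbols, the test recovered 60 of 113 changes of 2-fold and 82 of 87 changes of 4-fold, and 7.19% of its calls were false. Other tools were Python 3.11.15, numpy 2.4.6, pandas 2.3.3 and matplotlib 3.10.9.

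The samples, lists, thresholds and tests were chosen with earlier results of these data known. Named genes were the 20 most abundant, the 20 most and 10 least variable, the 5 most like Adipoq, Cdh5 and Cd68, the 8 nearest to each group's mean, the 5 with the smallest p between lanes and, of each list, the first, the most abundant and the most variable gene. Genes outside this rule were named after their values were seen, among them Mid1, at whose locus other members of its group lie, and Tmem132b. Alternatives were the sum over rows of a symbol, TMM-scaled RPKM, other cutoffs, pseudocounts and list lengths, ranking by reads, rows of at least 200 bases, edgeR dispersion, lane means removed, and each mouse left out. TMM scaling of the gene lists was added after seeing the data. The age and RIN limit, depth and lane of each sample come from the labels and files, and read counts limit precision by counting error only, not by PCR duplication. A few symbols among those of the rule are not reported here.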

Additional observations from a re-analysis of the deposited data

Results flagged for a closer look

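Among 176 values per mouse of named genes and lists, 8 (4.55%) lay far from the other 5 mice by Dixon's ratio for 6 samples, where chance flags about 1 in 20 groups. In mouse 5, Csf3 was high at 4.94 RPKM (next 0.698), Gm16587, which overlaps Selp, was high at 7.56 RPKM (next 1.91), and Thrsp was low at 25 RPKM (next 48.4). In mouse 2, G0s2, an inhibitor of lipolysis, was high at 243 RPKM (next 145), Saa3, an acute phase protein, was high at 13.2 RPKM (next 8.54), and Snord14d was low at 0.421 RPKM (next 1.84), which stands on 1 read. Daxx in mouse 4 (10.7 RPKM, next 10.3) and Fam134c in mouse 16 (13.6 RPKM, next 14.2) belong to the genes with the smallest spread, where a small gap is enough.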

How the results depend on the processing

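The count of expressed symbols was 14193, and 4365 at a cutoff of 10 RPKM (14116 to 14251 with each mouse left out). The first 20 symbols, with overlapping rows each counted, held 33.5% of summed RPKM, 24.8% when ranked by read count (32.6% to 34.5% with each mouse left out). Of the 200 most variable symbols, 126 remained with a pseudocount of 1 RPKM, 67 at a mean of at least 5 RPKM and 27 with no cutoff (141 to 181 with each mouse left out). For Adipoq and Pdgfra, TMM scaling gave r = -0.88 (exact adjusted p = 0.05), past the threshold, and leaving out each mouse gave -0.939 to -0.654. For Adipoq and Cdh5, leaving out each mouse gave -0.881 to -0.634. Without mouse 3, both pairs reached the threshold (exact adjusted p = 0.05). For Cdh5 and Cd68, r changed sign with TMM scaling (-0.0706), without mouse 5 (-0.126) and without mouse 16 (-0.00197). Over all mice left out in turn, it ran from -0.126 to 0.531. For Cd68 and Pdgfra, r changed sign with TMM scaling (-0.0338) and without mouse 5 (-0.138). Over all mice left out in turn, it ran from -0.138 to 0.565. Cdh5 and Pdgfra kept r at 0.989 to 0.996 with each mouse left out and missed the threshold without mouse 2 (exact adjusted p = 0.1), where 5 mice limit the smallest p. The cause of these changes was not tested. Of 48 counts of list members in 1 mouse, TMM scaling moved 5 by over 1.5 times: heat shock genes highest in mouse 5 (6 to 3), cell cycle genes highest in mouse 3 (7 to 13), fatty acid uptake genes highest in mouse 1 (3 to 1), and circadian genes highest in mouse 5 (5 to 2) and lowest in mouse 4 (4 to 2). With each mouse left out, the 200 symbols were chosen and grouped anew, so that the largest group need not be group A. The largest group then held 71.5% to 91% of the symbols and the first component 67% to 82.9% of the variance. These shares and the 0 calls between lanes were on the same side under every alternative run. No paired analysis was possible because samples of 1 tissue alone were compared. Genes with few reads are limited by depth, as for Gm15247 (1 to 35 reads).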

Other observations

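The genes of group B were also read in the other tissues, where the mouse numbers in the titles name the mice. Mid1 in iWAT adipocytes was 3.23 RPKM in mouse 3 and 2.50 RPKM in mouse 16, against 0.682 to 0.905 RPKM in the other mice. In adipocytes of epididymal fat (eWAT) it was 4.45 RPKM in mouse 4 and 6.02 RPKM in mouse 5, against 0.397 to 0.852 RPKM in mice 1, 2, 3 and 16. In brown fat (BAT) it was 2.48, 0.627, 1.47, 0.416, 0.487 and 1.91 RPKM in mice 1, 2, 5, 16, 17 and 18. Mice 3 and 16, the high ones in iWAT adipocytes, were thus not high in eWAT adipocytes, and Gm15247 and Gm15726 within Mid1 were also highest in mice 4 and 5 in eWAT adipocytes. What sets these samples apart was not tested.

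Mup7 had 10.8 to 47.5 RPKM in iWAT adipocytes, 0.782 to 2.66 RPKM in eWAT adipocytes and 0.126 to 0.539 RPKM in BAT. Cyp2f2 had 1.12 to 4.89 RPKM in iWAT adipocytes and 0.0996 to 0.501 RPKM in eWAT adipocytes. Tmem132b, one of the symbols in no group, had 0.642 RPKM in mouse 3 and 5.55 RPKM in mouse 16 of iWAT adipocytes and 0.186 to 1.44 RPKM in eWAT adipocytes. For the 161 symbols of group A, the mean log2 deviation ran from -0.92 (mouse 16) to 1.08 (mouse 5) in iWAT adipocytes. It ran from -0.34 (mouse 1) to 0.37 (mouse 4) in eWAT adipocytes and from -0.32 (mouse 5) to 0.21 (mouse 1) in BAT. Mouse 5, the highest in iWAT adipocytes, had -0.33 in eWAT adipocytes. Mouse 16, the lowest in iWAT adipocytes, had 0.16 in eWAT adipocytes and -0.22 in BAT. The order of the mice in iWAT adipocytes was thus not found in the other tissues. The symbols of group A were chosen for their spread in iWAT adipocytes, so that a smaller spread elsewhere follows in part from the choice.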
